A study of Mus musculus with 48 samples.

Results

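The Hox genes are the homeobox transcription factor genes that the array's annotation names Hoxa, Hoxb, Hoxc or Hoxd with a paralogue number. Of the 39 mouse Hox genes in RefSeq, 33 had a probe set that named them and no other gene, and these 33 are described here, out of 18193 genes measured. They comprised 9 genes of the HoxA cluster on chromosome 6, 9 of HoxB on chromosome 11, 7 of HoxC on chromosome 15 and 8 of HoxD on chromosome 2. Each gene was read from the probe set with its highest mean over all arrays; 11 of the genes had more than 1 probe set, and the 15 probe sets not chosen were examined separately. The other 6 had no probe set of their own and are not analysed here.

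Hox proteins bind DNA through a homeodomain, usually beside TALE partner proteins of the Pbx, Meis and Pknox families, and give cells their position along the body axis and along the limb. The genes lie in 4 clusters in which gene order follows paralogue number. Low-numbered genes act towards the head, high-numbered genes act in the trunk, tail and distal limb, and Polycomb and Trithorax chromatin proteins keep that pattern as cells divide. Limb and trunk muscle precursors carry the Hox pattern of the level they come from.

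All samples were cultures of C2C12, an established line of mouse skeletal myoblasts whose cells stop dividing and form multinucleate myotubes in low serum, and total RNA was hybridised to Affymetrix MOE430v2 arrays. Cycloheximide, an inhibitor of protein synthesis, was given at 50 µM to a pair of groups starting 1 h before the change to low-serum medium, and these were collected 1 h and 3 h after the change. The untreated groups were collected in DMEM with 20% fetal bovine serum 24 h before the change and at 0 h, and then in DMEM with 2% horse serum at 0.5, 1, 1.5, 2, 3, 6, 9, 12, 24, 48, 96 and 144 h. Each of the 16 groups had 3 arrays, from growths of successive passages, 48 arrays in all. No cells on growth medium were followed past 0 h, so the medium change and time in culture cannot be told apart, and there were no cycloheximide cells at 0 h. Only 1 cell line was used. The cultures were bulk samples, in which fewer cells of a type and less RNA per cell cannot be told apart.

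Values are log2 intensities from robust multi-array averaging (RMA), and a difference of 1 on this scale is a 2-fold change. Muscle markers fitted the label of the line: Myod1, the master regulator of the myogenic lineage, had means of 9.14, 10.05 and 10.01 at the times -24, 0 and 144 h, and Ckm, the muscle creatine kinase of mature fibres, had means of 4.60, 5.50 and 11.16. Of the 10 myoblast and myotube markers, 8 had risen and 1 had fallen at 48 h against 0 h (limma, adjusted p under 0.05). The 11 markers of other cell types had group medians between 3.42 and 3.64. Among them Epcam, an epithelial adhesion gene, was bright, with means of 6.36, 6.67 and 6.61 at the times -24, 0 and 144 h, and its part in the Hox results was not tested. Correlations between arrays of 1 group lay between 0.982 and 0.995. The 6 cycloheximide arrays had higher medians, 4.20 to 4.24, against 4.0 to 4.16 in the 42 untreated arrays, so each deposited cycloheximide difference includes this offset. Some values recurred exactly in them: 1429398_at of Hoxa3 read 3.2499 in all 3 cycloheximide arrays at 1 h. A probe set shared by Hoxd4 and Hoxd3, 1450209_at, read 3.4807 in all 3 at 3 h. Whether the cycloheximide arrays were normalised in a run of their own is not given in the sources used here and was not tested.

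The brighter Hox probe sets belonged to HoxA and HoxC. Of the 33 genes, 10 had a mean of at least 5 over all arrays, and every one was a HoxA gene (Hoxa5, Hoxa7, Hoxa9, Hoxa10 and Hoxa11) or a HoxC gene (Hoxc4, Hoxc6, Hoxc9, Hoxc10 and Hoxc13). No HoxB gene, 0 of 9, and no HoxD gene, 0 of 8, reached that mean. Probe sets differ in how brightly they bind, so these levels rank neither the genes nor the clusters by their amount of RNA. The group means of the 14 untreated groups spanned at most 0.33 for any HoxD gene and at most 0.58 for any HoxB gene, against up to 1.38 for HoxA (Hoxa9) and up to 1.45 for HoxC (Hoxc8).

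Over the differentiation course 9 of the 33 Hox genes (27.3%) varied in an F-test of all 12 times against 0 h, a smaller share than the 38.2% of all genes. They were Hoxc8 (adjusted p = 2.2e-05), Hoxa9 (4.45e-05), Hoxc4, Hoxa10, Hoxa11, Hoxc6, Hoxa7, Hoxb4 and Hoxc10 (0.0455), that is 4 of HoxA, 1 of HoxB and 4 of HoxC. With the replicate number as a block Hoxc13 varied too (adjusted p = 0.0144), as did 48.8% of all genes; the labels do not say that a number marks the same passage in every group. The share was higher at brighter probe sets. Of the 10 genes with a mean of at least 5, 7 varied (70%, against 60.9% of all genes as bright), and of the 23 dimmer ones 2 varied (8.7%, against 13.3%).

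**Figure D1:**
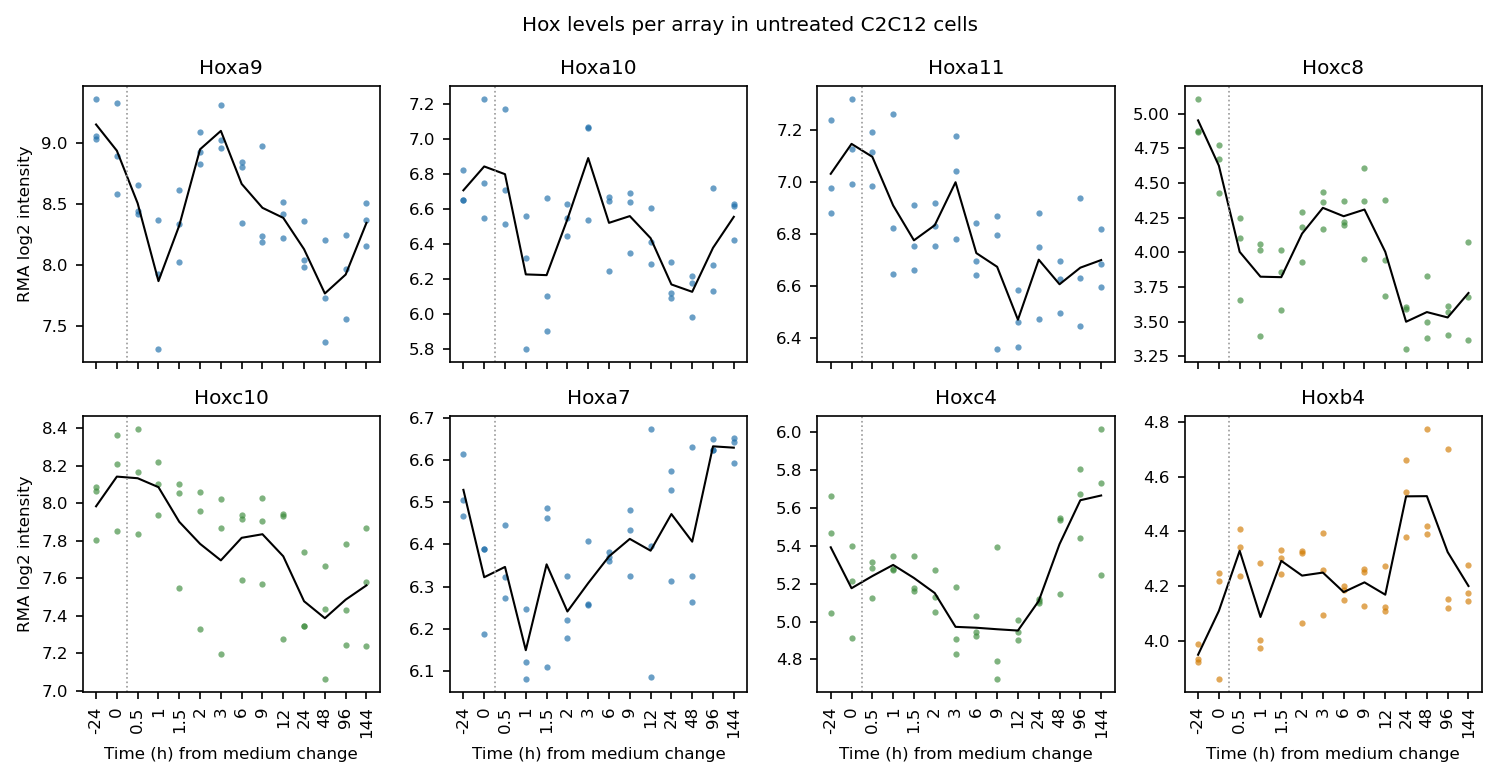
RMA log2 intensity of 8 Hox genes (vertical axes) by hours from the change to low-serum medium (horizontal axes). Dots are single arrays, the black line joins means of 3 arrays, and the dotted line marks the medium change at 0 h. Hoxa9, Hoxa10, Hoxa11, Hoxc8 and Hoxc10 lie lower at 48 h than at 0 h, while Hoxa7 and Hoxc4 lie higher at 96 h than at 0 h.

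The 3 neighbouring genes Hoxa9, Hoxa10 and Hoxa11, which stand side by side on the minus strand of chromosome 6, all fell by 48 h. The sequences before their starts are shown to set these neighbours beside each other: the 250 bases upstream of each start in RefSeq's table for build GRCm38.p6, read 5′ to 3′ on the strand of the gene. Hoxa10 has a pair of starts in that table.
Hoxa9, chr6:52227371-52227620: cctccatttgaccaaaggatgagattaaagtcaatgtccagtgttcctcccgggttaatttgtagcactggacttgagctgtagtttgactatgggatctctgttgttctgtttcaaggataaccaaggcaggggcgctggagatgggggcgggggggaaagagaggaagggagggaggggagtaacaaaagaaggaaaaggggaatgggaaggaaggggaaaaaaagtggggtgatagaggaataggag
Hoxa10, chr6:52240855-52241104: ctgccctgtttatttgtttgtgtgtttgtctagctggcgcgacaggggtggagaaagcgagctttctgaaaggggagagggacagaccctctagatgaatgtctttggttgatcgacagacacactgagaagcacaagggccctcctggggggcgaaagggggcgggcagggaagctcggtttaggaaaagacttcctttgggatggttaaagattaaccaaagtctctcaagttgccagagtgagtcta
Hoxa10, chr6:52234940-52235189: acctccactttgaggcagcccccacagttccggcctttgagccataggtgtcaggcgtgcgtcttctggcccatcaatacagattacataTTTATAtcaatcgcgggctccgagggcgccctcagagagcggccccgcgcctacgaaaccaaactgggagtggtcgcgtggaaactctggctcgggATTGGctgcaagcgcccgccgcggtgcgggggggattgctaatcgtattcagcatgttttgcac
Hoxa11, chr6:52245811-52246060: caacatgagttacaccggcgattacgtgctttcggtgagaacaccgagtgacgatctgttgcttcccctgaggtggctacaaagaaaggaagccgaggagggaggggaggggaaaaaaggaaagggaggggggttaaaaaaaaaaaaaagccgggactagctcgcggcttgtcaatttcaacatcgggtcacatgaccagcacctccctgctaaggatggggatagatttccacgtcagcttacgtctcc
Capitals mark matches, on either strand, to CAGCTG (an E-box, the kind of site MyoD binds), TGATTNAT (a site for Hox with Pbx), TATAAA and CCAAT; none of these motifs overlaps another in the letters shown. Only the nearer Hoxa10 start held any, TATAAA and CCAAT, each on the opposite strand, and the CG dinucleotides numbered 3 in the Hoxa9 window, 7 and 20 in those of Hoxa10 and 13 in that of Hoxa11. Across the 24 Hox windows in the table, which belong to 22 Hox genes and include 19 of the 33 measured ones, 3 held the E-box, against 13% of all 32841 windows. TGATTNAT stood in 2 of the 24, against 2.83% of all windows, TATAAA in 4, against 12.4%, and CCAAT in 14, against 33.9%. Hox windows held a median of 13 CG dinucleotides (2 to 35), against a median of 6 in all windows. Hoxc8 and Hoxc10 are not among these windows.

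Hoxa9, a trunk and limb patterning gene that also drives self-renewal of blood stem cells and leukaemic cells, dipped within the first hours and fell again in late differentiation. Its arrays read 9.03, 9.06 and 9.36 at -24 h and 8.58, 8.89 and 9.32 at 0 h. They read 7.31, 8.37 and 7.92 at 1 h, 8.02, 8.33 and 8.61 at 1.5 h, 8.83, 9.08 and 8.92 at 2 h and 8.96, 9.02 and 9.31 at 3 h. The 1 h arrays all lay below every 0 h array, and by 2 h the arrays lay among those of 0 h. Of the 33 Hox genes it was the only one called lower at 1 h, when 0.055% of all genes were, and no Hox gene was called higher (none at an unadjusted p under 0.05), against 0.137% of all genes. The call did not hold with any of 4 of the 6 arrays left out (0 h replicate 2 or 3, 1 h replicate 1 or 3), and the adjusted p reached 0.551. Over all 6 arrays left out in turn the difference ran between -1.32 and -0.79, and ranges given with lost calls further on also cover all arrays left out in turn. After quantile normalisation the difference was -1.04 (adjusted p = 0.0823). The 3 h arrays exceeded the 1 h arrays by 1.23 (SE 0.24, adjusted p = 0.00318), a comparison added after the dip was seen. Here 1 of 33 Hox genes was called, against 1.1% of all genes, and without 1 h replicate 1 the difference was 0.95 (adjusted p = 0.0597).

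Hoxa9 was lower again late in differentiation. Its arrays read 7.98, 8.04 and 8.36 at 24 h, 7.37, 7.73 and 8.20 at 48 h, 7.97, 7.55 and 8.24 at 96 h and 8.50, 8.16 and 8.37 at 144 h, all of them below the lowest 0 h array. It fell by 1.17 at 48 h against 0 h (SE 0.24, adjusted p = 0.000233), a level 2.25-fold lower, and by 1.01 at 96 h (adjusted p = 0.000924). Both calls held with each of the 6 arrays left out. At 24 h it fell by 0.81 (adjusted p = 0.0182). That call was lost without 0 h replicate 3 or 24 h replicate 1 or 2, with differences of -0.98 to -0.61 and an adjusted p of up to 0.151. At 144 h the difference was -0.59 (adjusted p = 0.0607).

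Another Hoxa9 probe set, 1421579_at, was not called lower at 1 h or 48 h. It read 5.44, 5.50 and 5.76 at 1 h, against 6.09, 5.88 and 6.22 at 0 h, a difference of -0.50 (SE 0.16, adjusted p = 0.501 over 45037 probe sets). At 48 h it read 5.80, 6.10 and 5.46, a difference of -0.28 (adjusted p = 0.255). Its 1 h arrays lay below the 0 h arrays, and its 48 h arrays overlapped them. At 96 h it read 5.63, 5.43 and 5.87, also below the 0 h arrays. Its means at 24 h and 144 h were both 5.72, against 6.06 at 0 h. Probe positions were not used here, so which Hoxa9 transcripts each probe set reads was not tested.

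Hoxc8, which patterns the thoracic skeleton and forelimb motor neurons, had the lowest adjusted p of all 33 genes over the course, at a dim probe set (mean under 5). It read 4.87, 5.11 and 4.88 at -24 h and 4.43, 4.67 and 4.78 at 0 h. It then read 3.39, 4.06 and 4.02 at 1 h, 3.59, 3.86 and 4.02 at 1.5 h and 4.44, 4.36 and 4.16 at 3 h. From 24 h on its arrays lay between 3.30 and 4.07, below every array of -24 h and 0 h. It fell by 1.13 at 24 h against 0 h (SE 0.19, adjusted p = 4.58e-05), by 1.06 at 48 h (4.23e-05), by 1.10 at 96 h (1.77e-05) and by 0.92 at 144 h (0.000203), and each of these calls held with any of 6 arrays left out. At 1.5 h it fell by 0.80 (SE 0.19, adjusted p = 0.0392), when 1 of 33 Hox genes and 0.214% of all genes were called lower. Without 0 h replicate 2 or 3, or any 1.5 h replicate, that difference ran between -0.90 and -0.69 with an adjusted p of up to 0.285. At 1 h the difference was also -0.80 (adjusted p = 0.0777).

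Hoxa10, needed for patterning of the lumbar region and for the uterus, read 6.30, 6.09 and 6.12 at 24 h and 6.18, 6.22 and 5.99 at 48 h, against 7.23, 6.75 and 6.55 at 0 h. Neither time overlapped 0 h. It fell by 0.67 at 24 h (SE 0.19, adjusted p = 0.0134) and by 0.71 at 48 h (adjusted p = 0.00400). Without 0 h replicate 1 the adjusted p was 0.0580 at 48 h, and at 24 h the call was lost without 0 h replicate 1 or 24 h replicate 2 (differences of -0.82 to -0.48, adjusted p up to 0.123). The chosen Hoxa10 probe set is of a kind that can bind related transcripts. Its only other probe set, 1446408_at, was dim and differed by -0.15 at 48 h (adjusted p = 0.503).

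Hoxa11, which with Hoxd11 shapes the forearm, read 6.59, 6.46 and 6.37 at 12 h, 6.88, 6.75 and 6.47 at 24 h, 6.63, 6.70 and 6.50 at 48 h, 6.94, 6.45 and 6.63 at 96 h and 6.60, 6.82 and 6.69 at 144 h. All of these lay below its 0 h arrays of 7.32, 7.13 and 6.99. It fell by 0.68 at 12 h (SE 0.15, adjusted p = 0.00854), the only Hox gene called there while 1.63% of all genes were called lower and 1.19% higher, and by 0.54 at 48 h (adjusted p = 0.00695), by 0.45 at 24 h, by 0.48 at 96 h and by 0.45 at 144 h. The 48 h call held with any of 6 arrays left out, with an adjusted p of up to 0.0496. The calls were lost without 0 h replicate 1 at the other 4 times, without 0 h replicate 2 at 24 h and 144 h, without 12 h replicate 3, 24 h replicate 2 or 3, 96 h replicate 2, and 144 h replicate 1 or 3. Across these 4 times the differences ran between -0.75 and -0.33 and the adjusted p reached 0.210.

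The antisense transcript of that locus fell as well, at the brighter of its probe sets. Hoxa11os (1452400_a_at), a noncoding RNA read from the strand opposite to Hoxa11, was at 6.11, 6.23 and 6.21 at 24 h and 5.65, 5.77 and 5.49 at 48 h, against 7.19, 7.27 and 7.11 at 0 h. It fell by 1.00 at 24 h and by 1.55 at 48 h (SE 0.16, adjusted p = 9.41e-10), when 18.7% of all probe sets were called. The arrays at 48 h lay at least 1 unit below every 0 h array. The other Hoxa11os probe set, 1457646_at, had means of 3.23 at 24 h and 3.10 at 48 h, against 3.09 at 0 h. The transcripts of Hoxa11 and Hoxa11os lie over each other, and how far their probe sets read the other strand was not tested.

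Hoxc10, a gene of hindlimb motor neurons and the lumbosacral region, read 7.74, 7.34 and 7.35 at 24 h, 7.67, 7.43 and 7.06 at 48 h and 7.78, 7.24 and 7.43 at 96 h, against 8.37, 8.21 and 7.85 at 0 h. None of these arrays overlapped 0 h. It fell by 0.67 at 24 h (SE 0.23, adjusted p = 0.0422), by 0.76 at 48 h (0.0104) and by 0.66 at 96 h (0.0226); at 144 h the difference was -0.58 (0.0504). Each call was lost without 0 h replicate 1. It was also lost at 24 h and 96 h without 0 h replicate 2 or replicate 2 or 3 of that time, and at 48 h without its replicate 3. With 1 array left out the differences ran between -0.90 and -0.54, with an adjusted p of up to 0.159.

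In counts, 5 Hox genes had fallen and 1 had risen at 24 h, 5 had fallen and 2 had risen at 48 h, 4 had fallen and 3 had risen at 96 h and 2 had fallen and 3 had risen at 144 h, each against 0 h. Of all genes, 7.42% had fallen and 6.56% risen at 24 h, 14.3% and 12.4% at 48 h, 17.1% and 15.5% at 96 h, and 14.9% and 13.5% at 144 h. As a share of the 33, 18.2% (24 h), 21.2% (48 h and 96 h) and 15.2% (144 h) were called, against 14%, 26.7%, 32.6% and 28.4% of all genes. The share at 24 h rested on single arrays: the count of 6 became 3 when 0 h replicate 1 was left out and 1 when 24 h replicate 2 was. From 48 h on the share lay under that of all genes. At 96 h 4 were called without 0 h replicate 1 or 96 h replicate 3 and 3 without 96 h replicate 2, and at 144 h the count was 3 when 0 h replicate 2 was left out and 1 when 144 h replicate 3 was. The fallen ones carried paralogue numbers 8 to 11 at each time, and the other members with these numbers were not called: 5 of 11 had fallen at 24 h and 48 h, 4 at 96 h and 2 at 144 h, and Hoxb9, Hoxc9, Hoxd8, Hoxd9, Hoxd10 and Hoxd11 at none. This holds for the chosen probe sets only. At 48 h a probe set not chosen, 1448926_at of Hoxa5, was also called lower (mean 4.38, against 4.92 at 0 h). Its means were 4.44 at 96 h and 4.45 at 144 h. Another not chosen, 1439885_at of Hoxc5, had a mean of 3.51 at 48 h, against 3.93 at 0 h, without overlap. In the F-test over the course, genes numbered 9 to 13 varied about as often (28.6%) as those numbered 1 to 8 (26.3%). The fallen genes were Hoxa9, Hoxa10, Hoxa11, Hoxc8 and Hoxc10 at 24 h and 48 h, the same genes without Hoxa10 at 96 h, and Hoxa11 and Hoxc8 at 144 h. The median difference of the 10 bright Hox genes at 48 h was -0.12, against -0.04 for all genes as bright, and that of all 33 was 0.02, against 0.06 for all genes.

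**Figure D2:**
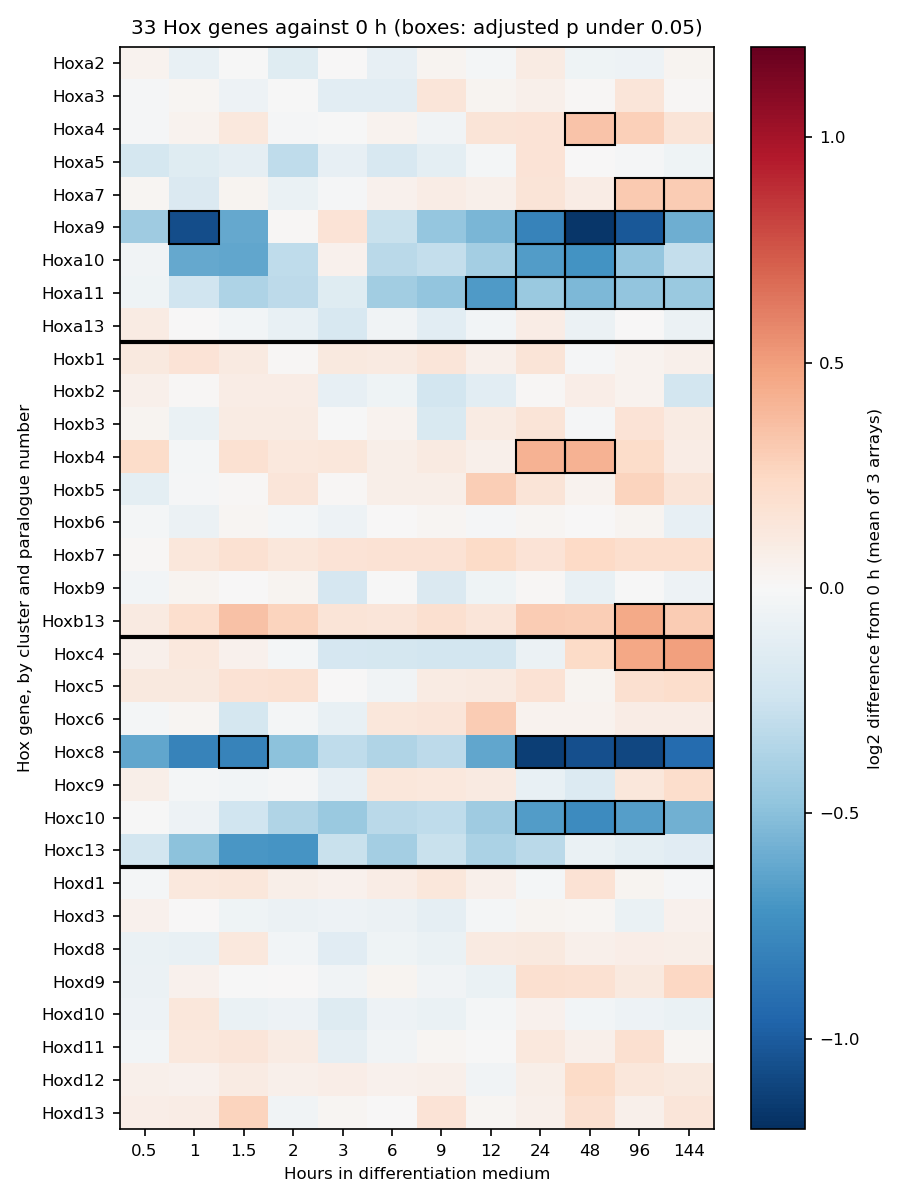
Differences from 0 h on the log2 scale for the 33 Hox genes (rows, by cluster and paralogue number) at 12 times after the medium change (columns). Boxes mark an adjusted p under 0.05 (limma). The falls gather in Hoxa9 to Hoxa11, Hoxc8 and Hoxc10 from 24 h on, and no HoxD gene is boxed at any time.

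**Figure D3:**
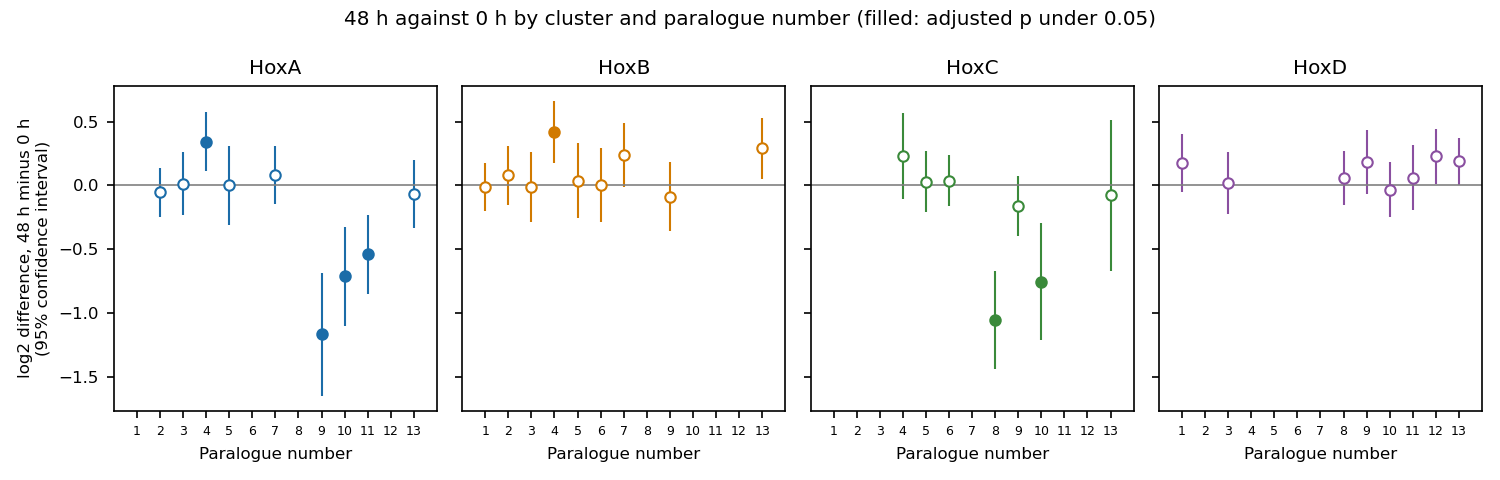
Log2 difference at 48 h against 0 h by paralogue number, with a panel for each cluster. Points are the fitted differences (3 arrays a group), bars are 95% confidence intervals, and filled points had an adjusted p under 0.05. The filled points below 0 are Hoxa9, Hoxa10, Hoxa11, Hoxc8 and Hoxc10, and those above 0 are Hoxa4 and Hoxb4.

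The genes that rose against 0 h in untreated cells did so by less than 0.5. Hoxb4, known for expanding blood stem cells, read 4.54, 4.66 and 4.38 at 24 h and 4.42, 4.78 and 4.39 at 48 h, against 4.22, 4.25 and 3.86 at 0 h, with no overlap. It rose by 0.42 at each time (SE 0.12, adjusted p = 0.0143 at 24 h and 0.00707 at 48 h). Hoxa4, a gene of the cervical vertebrae, read 3.31, 3.52 and 3.64 at 48 h, against 3.18, 3.26 and 3.00 at 0 h. These arrays did not overlap either, and Hoxa4 rose by 0.34 (adjusted p = 0.0198). Both genes have another, dimmer probe set, whose arrays at these times overlapped those of 0 h. For Hoxb4, 1451761_at had means of 3.195 at 24 h and 3.107 at 48 h, against 3.082 at 0 h. For Hoxa4, 1420226_x_at had a mean of 3.085 at 48 h, against 3.037 at 0 h. Hoxb4 lost its calls without 0 h replicate 3, 24 h replicate 1 or 2, or 48 h replicate 2 (0.29 to 0.49, adjusted p up to 0.159), and Hoxa4 without 0 h replicate 3 or 48 h replicate 2 or 3 (0.27 to 0.43, adjusted p up to 0.133).

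Hoxa7, of the thoracic vertebrae, read 6.65, 6.62 and 6.62 at 96 h and 6.59, 6.64 and 6.65 at 144 h, against 6.39, 6.39 and 6.19 at 0 h. The arrays did not overlap, and it rose by 0.31 at both times (SE 0.11, adjusted p = 0.0307 at 96 h and 0.0360 at 144 h). Hoxc4, of the neck and forelimb level, read 5.44, 5.81 and 5.67 at 96 h and 5.73, 5.25 and 6.02 at 144 h, against 4.91, 5.40 and 5.22 at 0 h. It rose by 0.46 at 96 h (adjusted p = 0.0290) and by 0.49 at 144 h (adjusted p = 0.0232), where its arrays overlapped those of 0 h. Hoxb13, a gene of the tail bud and prostate, read 3.83, 3.97 and 3.92 at 96 h and 3.50, 3.58 and 4.20 at 144 h, against 3.61, 3.48 and 3.28 at 0 h. It rose by 0.45 at 96 h (SE 0.12, adjusted p = 0.00269), without overlap and with any of 6 arrays left out. At 144 h it rose by 0.31 (adjusted p = 0.0464) with overlap, and by 0.09 without 144 h replicate 3.

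Apart from Hoxb13 at 96 h, these rises were lost with some arrays left out. Hoxa7 lost its calls without 0 h replicate 3, any 96 h replicate, or 144 h replicate 2 or 3 (0.24 to 0.34, adjusted p up to 0.186). Hoxc4 lost them without 0 h replicate 1, at 96 h also without 0 h replicate 3 or 96 h replicate 2 or 3, and at 144 h also without 144 h replicate 1 or 3 (0.31 to 0.70, adjusted p up to 0.230). Hoxb13 at 144 h also lost its call without 0 h replicate 2 or 3 (adjusted p up to 0.658). With the replicate block 2 further genes were called at 96 h (39.6% of all genes called): Hoxa10, which fell by 0.46 (adjusted p = 0.0206), and Hoxa4, which rose by 0.28 (adjusted p = 0.0426).

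Between late and early differentiation, at 144 h against 24 h, Hoxc4 was the only 1 of 33 Hox genes called, against 14.5% of all genes (7.5% risen and 6.98% fallen). It read 5.73, 5.25 and 6.02 at 144 h and 5.11, 5.12 and 5.10 at 24 h, without overlap, a rise of 0.56 (SE 0.17, adjusted p = 0.0177). Without 24 h replicate 3 or 144 h replicate 1 or 3 the difference ran between 0.38 and 0.77, with an adjusted p of up to 0.181. With the replicate block 3 were called (20.4% of all genes), the added ones being Hoxb4, which fell by 0.33 (adjusted p = 0.0458), and Hoxc9, which rose by 0.30 (0.0382).

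In the first 12 h, 3 of the 33 Hox genes were called at any time, against 3.96% of all genes: Hoxa9 at 1 h, Hoxc8 at 1.5 h and Hoxa11 at 12 h. With limma no Hox gene was called at 0.5, 2, 3, 6 or 9 h, when 0.0385%, 0.517%, 0.39%, 0.506% and 1.36% of all genes were (0.357% lower at 6 h). At an unadjusted p under 0.05, 1 Hox gene was lower at 0.5 h, 1 was higher and 3 were lower at 2 h, none differed at 3 h, and 1 was lower at each of 6 h and 9 h. The replicate block raised the 3 genes to 7, while 10.3% of all genes were called at any of these times. It added Hoxa10 at 1.5 h (fell by 0.62, adjusted p = 0.0431), Hoxc13, a gene of hair and nails, at 1.5 h (fell by 0.69, adjusted p = 0.0431) and 2 h (fell by 0.71, adjusted p = 0.0310), and Hoxa11 at 6 h (fell by 0.42, adjusted p = 0.0243) and 9 h (fell by 0.47, adjusted p = 0.00575). At 12 h it added Hoxc10 (fell by 0.43, adjusted p = 0.0340), Hoxc8 (fell by 0.62, adjusted p = 0.0393) and Hoxc6, a forelimb-level gene (rose by 0.31, adjusted p = 0.0446).

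In growth medium, at 0 h against 24 h earlier, no Hox gene was called with limma while 13.1% of all genes were (7.26% risen and 5.86% fallen). The 33 differences lay between -0.33 and 0.21, and 1 gene was lower at an unadjusted p under 0.05. A Hoxc5 probe set that was not chosen, 1439885_at, read 3.96, 3.93 and 3.91 at 0 h, against 4.63, 4.67 and 4.50 at -24 h, and fell by 0.67 (adjusted p = 0.000297). Its arrays did not overlap.

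The time profiles of the 10 bright Hox genes were compared over the 14 untreated group means. Of the 45 pairs, the neighbours Hoxa9 and Hoxa10 were most alike (Pearson's r = 0.825), followed by Hoxa11 and Hoxc10 (0.726) and by Hoxa10 and Hoxa11 (0.670). Hoxa7 was most like Hoxc4 (0.574) and ran against Hoxc10 (-0.545), and the lowest value was that of Hoxa11 and Hoxc6 (-0.568). The points share their arrays, their passages and their normalisation, so these values only describe the profiles.

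Cycloheximide before the medium change asks which RNAs respond when new protein cannot be made. Among the 33 Hox genes 11 rose and none fell in cycloheximide cells against untreated cells at 1 h, and 15 rose and none fell at 3 h (limma); none was lower at an unadjusted p under 0.05 at either time. Thus 33.3% of the Hox genes were called at 1 h and 45.5% at 3 h, against 24.6% and 34.4% of all genes. Of all genes, 24.2% rose and 0.418% fell at 1 h, and 30.9% rose and 3.42% fell at 3 h. By cluster, 5 of 9 HoxA, 4 of 9 HoxB, 1 of 7 HoxC and 1 of 8 HoxD genes rose at 1 h, and 7, 4, 1 and 3 rose at 3 h. The median gene was itself 0.20 higher in cycloheximide arrays at 1 h and 0.19 higher at 3 h. After quantile normalisation of all arrays together, which moved those medians to -0.01, 3 Hox genes rose and none fell at 1 h (4.42% and 2.36% of all genes), and 3 rose and 3 fell at 3 h (12.9% and 11.1%). Quantile normalisation ended most of these calls, and the differences that follow are those of the deposited values unless quantile normalisation is named. It aligns whole distributions, so any difference between normalisation runs at single probe sets would remain in both sets of values. Centring on housekeeping genes left 4 risen at 1 h and 15 at 3 h, with a median gene shift of 0.02 and 0.23.

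**Figure D4:**
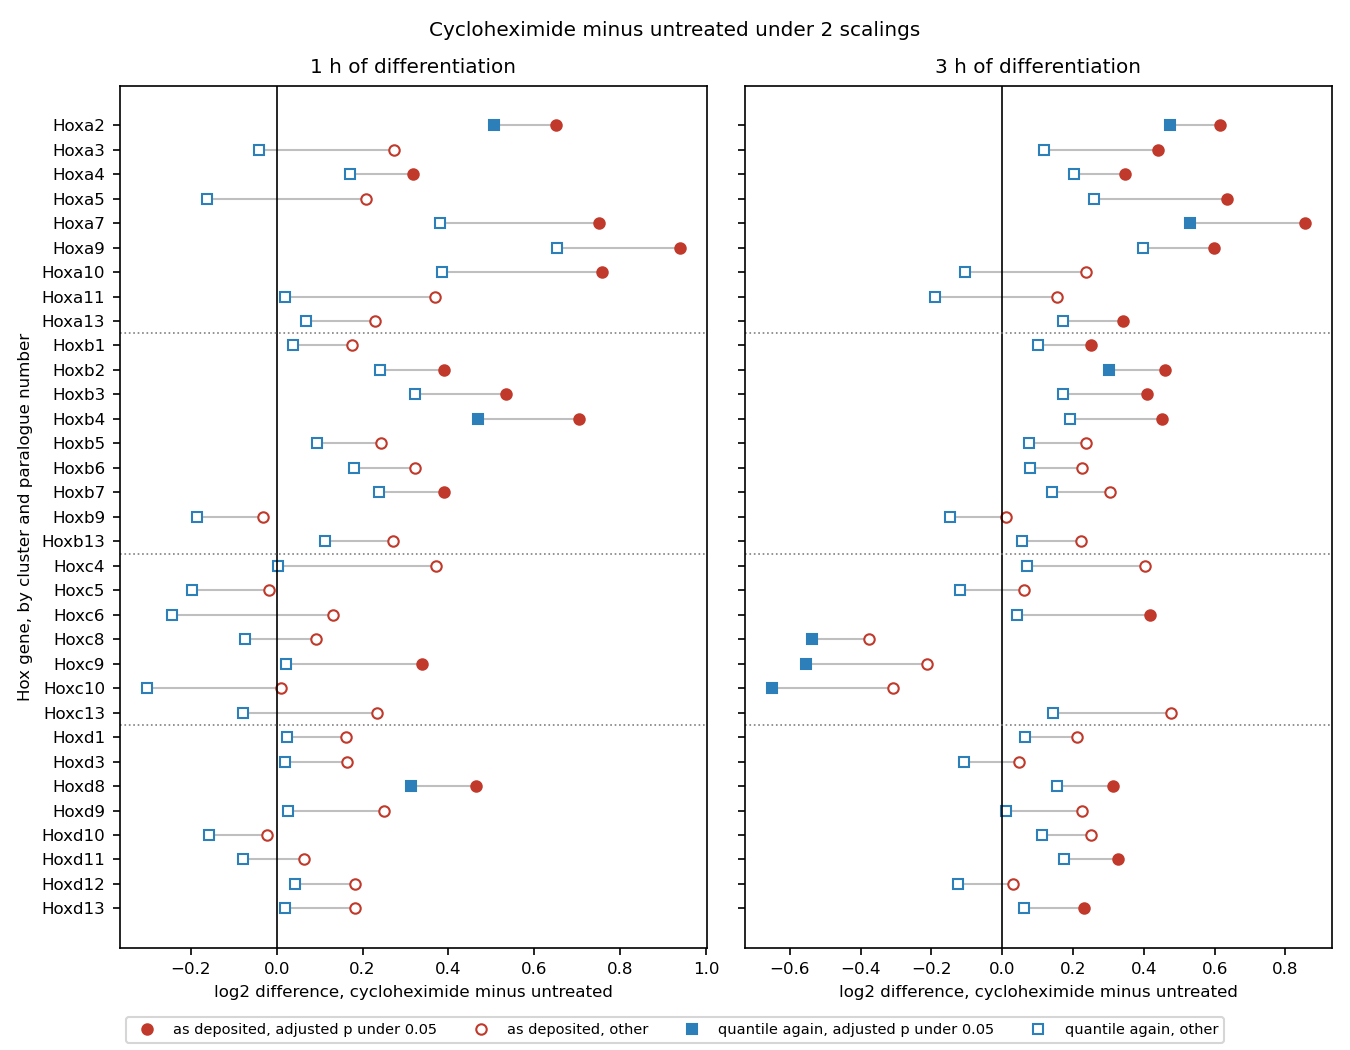
Log2 difference of cycloheximide against untreated cells for the 33 Hox genes at 1 h and 3 h, with the deposited values as red circles and the values normalised to quantiles again as blue squares. Filled marks had an adjusted p under 0.05. The red circles lie to the right of the blue squares, and 3 HoxC genes are filled below 0 at 3 h in blue.

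Hoxa2, which patterns the second pharyngeal arch, was the only Hox gene called higher at both times under both of these scalings. It read 3.39, 3.71 and 3.49 in cycloheximide cells at 1 h, against 2.82, 2.91 and 2.90 in untreated cells. At 3 h it read 3.62, 3.62 and 3.51 in cycloheximide cells, against 3.05, 2.80 and 3.06 in untreated cells. The groups did not overlap at either time. It rose by 0.65 at 1 h (SE 0.09, adjusted p = 2.76e-06) and by 0.61 at 3 h (adjusted p = 2.15e-06), and by 0.51 and 0.47 after quantile normalisation. These Hoxa2 levels lie under the array medians.

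Hoxa7 read 6.88, 6.86 and 6.95 in cycloheximide cells at 1 h, against 6.25, 6.12 and 6.08 in untreated cells. At 3 h it read 7.02, 7.40 and 7.07 in cycloheximide cells, against 6.26, 6.41 and 6.26 in untreated cells. Neither time overlapped. It rose by 0.75 at 1 h (SE 0.11, adjusted p = 4.77e-06) and by 0.86 at 3 h (adjusted p = 1.14e-07). After quantile normalisation the differences were 0.38 at 1 h (adjusted p = 0.0785) and 0.53 at 3 h (adjusted p = 0.00249).

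Hoxa9 was higher in cycloheximide cells than in untreated cells at 1 h, the time of its dip. Cycloheximide cells read 8.46, 9.02 and 8.94 at 1 h, against 7.31, 8.37 and 7.92 in untreated cells at 1 h, without overlap. Set against the 0 h cells they differed by -0.13 (95% confidence interval -0.61 to 0.36, adjusted p = 0.714), and by -0.39 after quantile normalisation (adjusted p = 0.420). Against untreated cells at 1 h Hoxa9 rose by 0.94 (SE 0.24, adjusted p = 0.00352), and Hoxa10 rose by 0.76 (adjusted p = 0.00321), with 6.84, 7.05 and 7.07 in cycloheximide cells and 6.56, 5.80 and 6.32 in untreated cells. After quantile normalisation the Hoxa9 difference was 0.65 (adjusted p = 0.115) and that of Hoxa10 was 0.38 (adjusted p = 0.192). The other Hoxa9 probe set, 1421579_at, rose by 1.00 at 1 h (adjusted p = 2.09e-05), and by 0.61 after quantile normalisation (adjusted p = 0.0160). As deposited it read 6.43, 6.75 and 6.50 in cycloheximide cells and 5.44, 5.50 and 5.76 in untreated cells. At 3 h the chosen Hoxa9 probe set read 9.28, 9.99 and 9.81 in cycloheximide cells, against 8.96, 9.02 and 9.31 in untreated cells. These overlapped, and the rise was 0.60 (adjusted p = 0.0490), or a difference of 0.40 after quantile normalisation (adjusted p = 0.268). At 3 h 1421579_at read 6.98, 7.34 and 6.85 in cycloheximide cells, against 6.26, 6.06 and 6.11 in untreated cells, as deposited and without overlap. The Hoxa9 and Hoxa10 calls at 1 h were lost without 1 h replicate 1 (adjusted p = 0.0503) and 1 h replicate 2 (adjusted p = 0.0533), each in turn.

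Hoxc8 was lower than at 0 h in cycloheximide cells as well. Its arrays read 3.72, 3.98 and 4.05 in cycloheximide cells at 1 h and 3.67, 4.04 and 4.12 at 3 h, against 4.43, 4.67 and 4.78 in the 0 h cells. It fell by 0.71 at 1 h (SE 0.19, adjusted p = 0.00512) and by 0.68 at 3 h (adjusted p = 0.00476) without overlap and with any of 6 arrays left out. Both comparisons against 0 h were chosen after the data were seen; in them 15 of 33 Hox genes were called at 1 h and 17 at 3 h, against 29% and 33.8% of all genes. With the replicate block 17 were called at 1 h (37.7% of all genes), Hoxa3 (rose by 0.30) and Hoxd9 (rose by 0.31) being added. Of the 15, 14 had risen, and of the 17, 14 had risen and 3 had fallen, Hoxc8, Hoxc9 and Hoxc10. Of all genes, 28.5% had risen and 0.473% had fallen at 1 h, and 29.5% and 4.31% at 3 h. After quantile normalisation 2 Hox genes had risen and 1 had fallen at 1 h (5.07% and 2.13% of all genes), and 5 had risen and 4 had fallen at 3 h (13.6% and 13.3%); the fallen ones included Hoxc8 at both times.

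Hoxc8, Hoxc9 and Hoxc10 had negative differences between cycloheximide and untreated cells at 3 h. Hoxc9, which sets the identity of thoracic motor neurons, read 7.58, 7.52 and 7.23 in cycloheximide cells, against 7.73, 7.60 and 7.64 in untreated cells at 3 h. At 1 h it had read 8.04, 8.12 and 8.04 in cycloheximide cells, against 7.79, 7.74 and 7.66 in untreated cells. On the deposited values it lay above the untreated cells at 1 h, a rise of 0.34 (adjusted p = 0.0300), and all its arrays lay below them at 3 h, a difference of -0.21 (adjusted p = 0.156). After quantile normalisation Hoxc9 differed by 0.02 at 1 h (adjusted p = 0.951) and fell by 0.56 at 3 h (SE 0.11, adjusted p = 0.00029). At 3 h Hoxc10 then fell as well, by 0.65 (adjusted p = 0.0125), and Hoxc8, by 0.54 (adjusted p = 0.0436). As deposited, Hoxc10 differed by -0.31 (adjusted p = 0.302) and Hoxc8 by -0.38 (adjusted p = 0.123). With the replicate block Hoxc10 was called lower on the deposited values (adjusted p = 0.0468). Hoxc9 was the only one of 33 whose cycloheximide effect differed between 3 h and 1 h (4.29% of all genes), by -0.55 (SE 0.16, adjusted p = 0.0447). The call was lost with any of 10 of the 12 arrays left out, all but cycloheximide 3 h replicates 1 and 2, with an adjusted p of up to 0.176.

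The other rises at 1 h were those of Hoxb4 (0.70), Hoxb3 (0.53), Hoxd8 (0.47), Hoxb2 (0.39), Hoxb7 (0.39) and Hoxa4 (0.32), all at probe sets with a mean under 5. Hoxb4 read 4.89, 4.74 and 4.74 in cycloheximide cells and 4.0, 3.97 and 4.28 in untreated cells, without overlap, and was 0.47 higher after quantile normalisation (adjusted p = 0.0121); Hoxd8 was then 0.31 higher (adjusted p = 0.0497), and the other 4 were not called. At 3 h the other rises were those of Hoxa5 (0.64), Hoxb2 (0.46), Hoxb4 (0.45), Hoxa3 (0.44), Hoxc6 (0.42), Hoxb3 (0.41), Hoxa4 (0.35), Hoxa13 (0.34), Hoxd11 (0.33), Hoxd8 (0.31), Hoxb1 (0.25) and Hoxd13 (0.23). Of these only Hoxb2, a hindbrain gene, was also called after quantile normalisation (0.30, adjusted p = 0.0321). The chosen probe set of Hoxc6 then differed by 0.04, that of Hoxa5 by 0.26 and that of Hoxa3 by 0.12. The Hoxc6 probe sets not chosen, 1427361_at and 1427362_x_at, had deposited means of 5.99 and 5.95 in cycloheximide cells at 3 h. In untreated cells at 3 h they had 5.19 and 5.33. With any array left out, 5 of the 11 calls at 1 h held (Hoxa2, Hoxa7, Hoxb2, Hoxb4 and Hoxd8) and 6 of the 15 at 3 h (Hoxa2, Hoxa5, Hoxa7, Hoxb2, Hoxb4 and Hoxc6). The other calls reached an adjusted p between 0.0503 and 0.164 at 1 h and between 0.0828 and 0.268 at 3 h when 1 array was left out. With the replicate block 20 of the 33 were called at 3 h, against 41% of all genes, the added ones being Hoxc10, which fell, and Hoxc13 (0.48), Hoxc4 (0.40), Hoxb7 (0.30) and Hoxd10 (0.25), which rose. The numbers did not pair the samples at 1 h.

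The largest responses to cycloheximide came from Hox probe sets that were not chosen. Hoxa5, a gene of lung, diaphragm and the cervical level, has another probe set, 1448926_at. It read 5.68, 5.96 and 5.75 in cycloheximide cells at 1 h, against 4.35, 4.89 and 4.40 in untreated cells. At 3 h it read 7.03, 7.59 and 7.30 in cycloheximide cells, against 5.16, 4.99 and 5.01 in untreated cells. The groups lay far apart at both times. It rose by 1.25 at 1 h (SE 0.16, adjusted p = 2.55e-07) and by 2.26 at 3 h (adjusted p = 2.53e-14), when 20.9% and 26.1% of all probe sets rose, and by 0.90 and 1.89 after quantile normalisation. The effect was larger at 3 h than at 1 h by 1.01 (SE 0.22, adjusted p = 0.00455). In untreated differentiation the same probe set moved the other way: it read 4.42, 4.32 and 4.42 at 48 h, against 5.04, 4.90 and 4.82 at 0 h, and fell by 0.54 (adjusted p = 0.0117).

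Hoxa3, which is needed for the thymus and parathyroid, also rose at a probe set that was not chosen, 1427433_s_at. It read 4.43, 4.93 and 4.71 in cycloheximide cells at 1 h, against 3.33, 3.50 and 3.24 in untreated cells, and rose by 1.33 (adjusted p = 7.04e-12). At 3 h it read 5.26, 5.45 and 5.70 in cycloheximide cells, against 3.42, 3.36 and 3.49 in untreated cells, and rose by 2.05 (adjusted p = 5.12e-18). No arrays overlapped, and after quantile normalisation the rises were 1.12 and 1.68. Hoxa3 has 4 probe sets, and the remaining ones not chosen moved less at 3 h. There 1429398_at had a mean of 3.24 in cycloheximide and in untreated cells, and 1431392_at had 3.71, against 3.40 in untreated cells. The chosen probe sets of both genes moved less, with a rise at 3 h of 0.64 for Hoxa5 and 0.44 for Hoxa3. Like that of Hoxa10, the chosen Hoxa5 probe set is of a kind that can bind related transcripts. The other Hoxa5 probe set is not of this kind, so the results by gene for Hoxa5 rest on the less specific of them. For Hoxa3, 1427433_s_at is of this kind and the chosen probe set is not. The chosen Hoxa5 probe set read 6.27, 6.55 and 6.51 in cycloheximide cells, against 5.68, 5.65 and 6.11 in untreated cells. In RefSeq's table the listed start of Hoxa3 lies upstream of Hoxa5 on the same strand, so transcripts of these genes can overlap, and which transcript each probe set reads was not tested. Transcripts of Hoxb3 and Hoxb4, of Hoxc4, Hoxc5 and Hoxc6, and of Hoxd3 and Hoxd4 are also known to overlap.

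**Figure D5:**
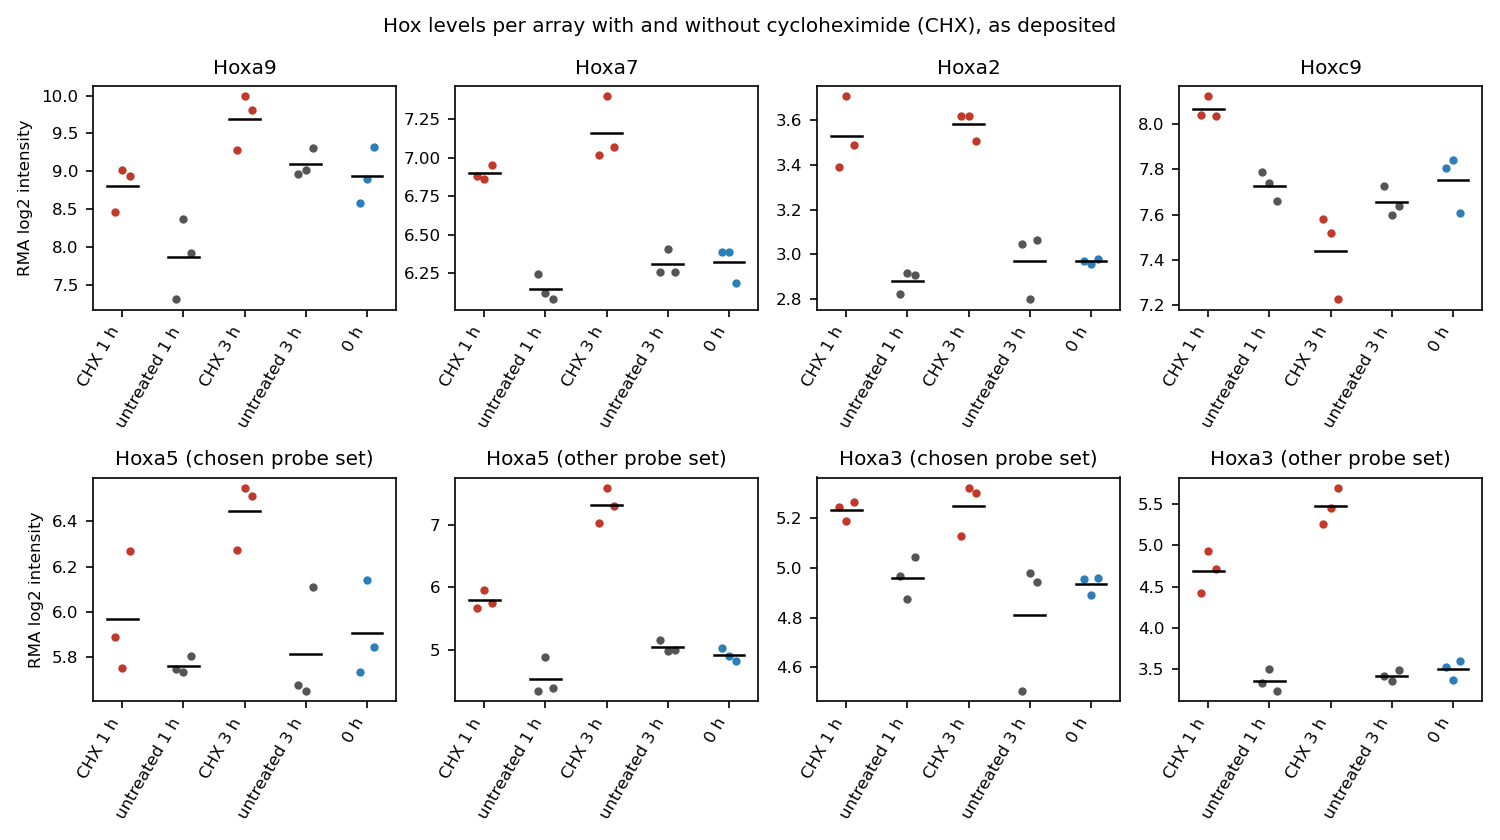
RMA log2 intensity of Hoxa9, Hoxa7, Hoxa2, Hoxc9 and of further probe sets in cycloheximide and untreated cells at 1 h and 3 h and in the 0 h cells. The further panels show both probe sets of Hoxa5, and the chosen probe set and 1427433_s_at out of the 4 of Hoxa3. Dots are single arrays and bars are means of 3. The widest gaps between cycloheximide and untreated cells are those of 1448926_at (Hoxa5) and 1427433_s_at (Hoxa3) at 3 h.

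Partners and regulators of Hox genes changed in both directions. Of 9 TALE cofactors measured, 2 rose and 2 fell at 48 h against 0 h: Pbx3 rose by 1.10 (SE 0.20) and Pknox2 by 1.04 (SE 0.26), while Meis2 fell by 1.83 (SE 0.20, adjusted p = 4.72e-09) and Meis1 by 0.68 (SE 0.13). Of 19 Polycomb repressors, none rose and 6 fell, with a list median of -0.15, against 0.06 for all genes. They included the polyhomeotic subunit Phc3 (fell by 1.25), the PRC2 subunits Suz12 (fell by 1.17) and Jarid2 (fell by 1.10), and Rnf2, the ubiquitin ligase of PRC1 (fell by 0.86). Of 11 Trithorax activators and H3K27 demethylases, 2 rose (Dot1l by 0.57 and Wdr5 by 0.29) and 1 fell, the Hox activator Kmt2a (by 0.81, SE 0.28, adjusted p = 0.0291). Of 12 axial and retinoid regulators, the retinoid receptors Rarg (fell by 0.72) and Rxra (fell by 0.53) fell and Cyp26a1 rose by 0.50. Of 13 other homeobox genes of limb and muscle, 1 rose and 4 fell, led by the limb mesenchyme genes Prrx1 (fell by 2.29, SE 0.27), Prrx2 (fell by 1.43) and Shox2 (fell by 1.30). Among 16 genes that flank the Hox clusters 1 rose (Snx11 by 0.68) and 2 fell (Hnrnpa1 by 0.57 and Hibadh by 0.23). These counts stand against 12.4% of all genes risen and 14.3% fallen at 48 h. After quantile normalisation the Polycomb count was the same, while among the Trithorax activators and demethylases 3 rose and none fell, without Kmt2a.

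In cycloheximide against untreated cells at 3 h, 2 of 9 TALE cofactors rose (Pknox2 by 0.90 and Meis3 by 0.43) and none fell. Of 19 Polycomb repressors 7 rose and 2 fell, among them Phc3 (rose by 1.59), the PRC2 subunit Eed (rose by 0.98) and the H3K27me3 reader Cbx2 (fell by 0.98). Of 11 Trithorax activators and H3K27 demethylases 6 rose and none fell, with a list median of 0.62, against 0.19 for all genes, led by the demethylase Kdm6a (rose by 0.75) and the methyltransferase Kmt2b (rose by 0.72). Of 16 flanking genes 6 rose and none fell, led by Hnrnpa1 (rose by 1.04, SE 0.09) next to HoxC, which had fallen at 48 h. Of all genes, 30.9% rose and 3.42% fell in this comparison. Of 12 axial and retinoid regulators 1 rose, and of 13 other homeobox genes 3 rose and 1 fell. The shift of the median gene is part of these counts: after quantile normalisation no TALE cofactor rose and 1 fell, 2 Polycomb repressors rose and 5 fell, 2 Trithorax activators and demethylases rose and 2 fell (list median 0.31), and 3 flanking genes rose and 1 fell, against 12.9% of all genes risen and 11.1% fallen.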

How the data were processed

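C2C12 cultures were profiled on 48 Affymetrix MOE430v2 arrays, 3 for each of 16 groups. The deposited values are log2 intensities that the authors made by RMA, per the submitters' processing notes; its version is not given in the sources used here. Of 45101 probe sets, 64 controls were left out, 34945 had exactly 1 gene symbol and 932 several; each of 18193 genes was read from its probe set with the highest mean. limma 3.58.1 in R 4.3.3 fitted 1 coefficient per group over all 48 arrays (32 residual degrees of freedom), with Benjamini-Hochberg adjustment over all genes and calls at 0.05. The fit was tested on simulated data. Probe sets not chosen were tested in a fit over 45037 probe sets. The number of arrays limits the precision, and p-values measure the spread between growths of successive passages. All comparisons with 0 h share its 3 arrays. The labels do not say that a replicate number marks the same passage in every group, but same-numbered arrays deviated together (mean r 0.291, against -0.145 for other numbers); in 14 of 19 comparisons every pair exceeded 0.1, and these count as paired. Alternatives were quantile normalisation again, centring on 16 housekeeping genes, a mean minimum of 5, other probe set rules, other variance settings, the replicate block and leaving out each array. Calls and adjusted p values were made without the replicate block unless it is named, also in the paired comparisons. The fits with 1 array left out did not use it either. Whether the calls lost there would be lost with the block was not tested. Genes named are all Hox genes called and up to 4 called members of each list. The Hox genes, lists and tests were chosen with earlier results of these data known.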

Additional observations from a re-analysis of the deposited data

Results flagged for a closer look

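The effect of cycloheximide on Hoxc9 differed between times: on the deposited values it was 0.34 at 1 h and -0.21 at 3 h, an interaction of -0.55 (SE 0.16, adjusted p = 0.0447). After quantile normalisation it was 0.02 at 1 h and -0.56 at 3 h, an interaction of -0.58 (adjusted p = 0.0273), and centred on housekeeping genes it was -0.33 (adjusted p = 0.221).

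The other flagged values come from probe sets of Hox genes or their antisense transcripts that the comparisons by gene did not use, each differing between groups in the fit over all probe sets. In cycloheximide cells at 3 h against untreated cells, 1427433_s_at of Hoxa3 rose by 2.05, 1427361_at of Hoxc6 by 0.80 and 1431392_at of Hoxa3 by 0.31. In cycloheximide cells at 3 h against 0 h cells, 1448926_at of Hoxa5 rose by 2.39, 1421579_at of Hoxa9 by 0.99 and 1427362_x_at of Hoxc6 by 0.64. In cycloheximide cells at 1 h, 1451761_at of Hoxb4 rose by 0.37 against untreated cells, and 1460056_at of Hoxd3os1 rose by 0.47 and 1450832_at of Hoxc5 by 0.35 against 0 h cells. These cycloheximide values include the upward shift of the median gene. Without cycloheximide, 1452400_a_at of Hoxa11os fell by 1.55 at 48 h against 0 h, 1439885_at of Hoxc5 fell by 0.67 at 0 h against 24 h earlier, and 1450209_at, which is shared by Hoxd4 and Hoxd3, rose by 0.26 at 96 h against 0 h.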

How the results depend on the processing

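The late falls of Hoxa9 and Hoxc8 at 48 h and 96 h held under every alternative fit that could test them. The mean minimum of 5 dropped Hoxc8, which has only 1 probe set. Read on its own, the other Hoxa9 probe set 1421579_at was not called lower at 48 h. Quantile normalisation again gave 3 Hox genes for cycloheximide at 1 h (11 as deposited) and 6 at 3 h (15). Against 0 h cells it gave 3 (15) and 9 (17). It reversed the chosen Hoxc6 probe set at cycloheximide 3 h against 0 h, to -0.057 (adjusted p = 0.751). It also ended the Hoxa9 call at 1 h (-1.04, adjusted p = 0.0823). Centring on housekeeping genes gave 3 at 24 h (6), 0 at 144 h against 24 h (1), 4 for cycloheximide at 1 h and 5 for it against 0 h cells. Keeping genes with a mean of at least 5, which drops dim members, gave 4 at 48 h (7), 4 for cycloheximide at 1 h and 4 at 3 h, and 3 and 6 against 0 h cells. Fitting only the arrays compared, with fewer degrees of freedom, gave 1 in the first 12 h (3), 4 at 96 h (7), 2 at 144 h (5), 0 at 144 h against 24 h, 6 for cycloheximide at 1 h, and 0 for both the interaction (1) and 3 h against 1 h (1). Averaging probe sets gave 8 at 144 h, 1 at 0 h against 24 h earlier (0) and 2 for the interaction, which was also 2 without shared probe sets and 0 with a robust trended variance. The replicate block gave 7 in the first 12 h, 3 at 144 h against 24 h and 2 at 3 h against 1 h; it ended no call and, beyond those given with the results, changed none in paired comparisons. The cause of these changes was not tested unless named.

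Leaving out 1 array gave counts of 1 to 3 in the first 12 h, 1 to 5 at 24 h, 5 to 7 at 48 h, 3 to 9 at 96 h, 1 to 4 at 144 h, 0 to 1 at 144 h against 24 h, 1 to 2 at 3 h against 1 h, 0 to 0 at 0 h against 24 h earlier, 8 to 10 for cycloheximide at 1 h, 8 to 13 at 3 h, 10 to 14 and 12 to 15 against 0 h cells, 0 to 1 for the interaction and 7 to 10 in the F-test (9). Signal limits the dim members: all 9 HoxB and all 8 HoxD probe sets had a mean under 5.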
